A study of Mus musculus with 11 samples.

Results

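The genes described here encode the subunits of the proteasome and the enzymes that attach ubiquitin to proteins or take it off again. They were chosen by name: protein-coding mouse genes whose symbol starts with Psma, Psmb, Psmc, Psmd, Psme, Ube2, Ube3, Ube4 or Usp followed by a digit, together with Uba1. Of 144 annotated genes with such a name, 76 had rows in the deposited footprint counts, out of 4338 genes in all. The other annotated genes are not analysed here, among them the immunoproteasome subunits Psmb8, Psmb9 and Psmb10. The data are ribosome-protected fragments (RPFs, or footprints), pieces of mRNA protected inside ribosomes at the time of digestion, from cortex of C57BL6 mice that were 7 to 8 weeks old. Ipsilateral cortex (4 libraries, replicates 2, 4, 5 and 6) came from the side on which a filament had blocked the middle cerebral artery for 35 min, followed by 3 h of reperfusion. Contralateral cortex (4 libraries, replicates 1, 4, 5 and 6) came from the opposite hemisphere of operated animals. Whether libraries of the hemispheres with the same number come from the same animal is not stated, and the test took all libraries as independent. Sham cortex (3 libraries, replicates 1, 2 and 5) came from animals operated in the same way but with no filament inserted, on a side that is not stated. The animals carried no stated genetic change, and all groups, sham included, had been under isoflurane. The tissue entry of the ipsilateral samples names the contralateral hemisphere, against their titles and descriptions, which were followed here. Total RNA was not analysed here, so a difference in footprints can reflect the amount of a transcript or its translation, and in a whole tissue fewer cells of a type and less RNA per cell cannot be told apart.

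As background, ubiquitin is a small protein that marks other proteins, mostly for destruction. An E1 enzyme, chiefly Uba1, activates it, an E2 conjugating enzyme (Ube2 genes) carries it, and an E3 ligase passes it to the target, while E4 enzymes such as Ube4b lengthen the chain. The 26S proteasome reads the chain: its 19S regulatory particle binds and unfolds the target with a ring of ATPases (Psmc genes) and a set of non-ATPase subunits (Psmd genes), and its 20S core cuts it, in a barrel of alpha rings (Psma genes) around beta rings (Psmb genes). Ubiquitin-specific proteases (Usp genes) remove ubiquitin again. In neurons the system turns over synaptic and misfolded proteins, and ischaemia is known to load the tissue with ubiquitinated protein.

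The promoters of the 3 genes with the smallest unadjusted p-values between ipsilateral and sham cortex are shown because the transcription of proteasome genes is known to be set jointly by Nfe2l1, a factor that binds antioxidant-response-like elements. Each sequence spans 250 bases before to 50 after the start in RefSeq's GRCm38.p6, read 5′ to 3′ on the gene's strand. Capitals mark matches to TGACNNNGC or TGAGNNNGC, core letters of such elements, and to CCAAT, the box bound by NF-Y, searched on both strands; no capitals means no match in this window. The Psmd6 promoter lies at chr14:14120896-14121195 on the minus strand, that of Psmb5 at chr14:54617946-54618245 on the minus strand, and that of Psmb3 at chr11:97703184-97703483 on the plus strand.
Psmd6: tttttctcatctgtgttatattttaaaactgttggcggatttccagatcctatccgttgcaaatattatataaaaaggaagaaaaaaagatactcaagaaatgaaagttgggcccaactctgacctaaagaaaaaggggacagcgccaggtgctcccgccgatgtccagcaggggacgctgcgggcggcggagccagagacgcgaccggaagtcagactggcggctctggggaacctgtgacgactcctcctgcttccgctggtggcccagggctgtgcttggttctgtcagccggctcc
Psmb5: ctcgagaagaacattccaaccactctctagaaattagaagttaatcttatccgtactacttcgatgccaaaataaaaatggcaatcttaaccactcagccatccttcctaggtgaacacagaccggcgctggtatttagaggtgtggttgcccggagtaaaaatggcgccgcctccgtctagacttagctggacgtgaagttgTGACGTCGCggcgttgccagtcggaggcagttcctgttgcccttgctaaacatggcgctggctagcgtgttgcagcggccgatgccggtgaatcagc
Psmb3: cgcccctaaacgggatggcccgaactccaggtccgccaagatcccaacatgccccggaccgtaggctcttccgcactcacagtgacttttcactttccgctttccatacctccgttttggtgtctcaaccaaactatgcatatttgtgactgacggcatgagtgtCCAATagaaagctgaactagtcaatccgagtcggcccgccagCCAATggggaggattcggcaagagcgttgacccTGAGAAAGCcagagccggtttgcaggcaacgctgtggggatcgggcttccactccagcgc
Psmb5 held 1 match to the antioxidant-response-like letters, Psmb3 held 1 and a pair of CCAAT boxes (2 matches), and Psmd6 held neither. RefSeq promoters were matched for 60 of the 76 genes, with 71 promoters in all. The antioxidant-response-like letters occurred in 28 of these 71 (39.4%), and in 14 of the 27 promoters of 20S and 19S subunits (51.9%). They occurred in 31.1% of promoters of the genes in the counts table and in 27.8% of all 32851 promoters. CCAAT occurred in 26.8% of the 71 promoters and in 33.3% of those of the subunits, beside 36.4% of promoters of the table's genes and 37.4% of all promoters. These shares describe the letters only.

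The libraries were shallow, and unequally so. Summed over 1 transcript per gene, footprint totals were 35067 to 137340 in ipsilateral, 137373 to 571352 in contralateral and 64462 to 256654 in sham libraries. The median count of the 76 genes was 4 in ipsilateral replicate 4, the shallowest library, where a single count equals 28.6 CPM (a count per 1000000 footprints of the library, scaled by TMM factors) and 4 of the genes had no count. It was 73.5 in contralateral replicate 6, the deepest. A count of 0 in ipsilateral replicate 4 still allows 85.7 CPM, which covers counting error only. The 7 neuron markers summed to 9136 to 11164 CPM in ipsilateral, 10169 to 11932 in contralateral and 10260 to 11637 in sham libraries, with none called and none at 0 in any library. Of the 7, 6 had a log2 change below 0 in ipsilateral against sham cortex, with a median of -0.16. Markers of other cells were measured in the same way. The 4 oligodendrocyte markers in the table summed to 2108 to 4761 CPM in ipsilateral, 1624 to 2152 in contralateral and 1578 to 1980 in sham libraries, and all 4 were called higher in ipsilateral than in contralateral cortex. The 6 microglia markers summed to 843 to 1173, 604 to 827 and 442 to 727 CPM in the ipsilateral, contralateral and sham libraries, with none called. The 4 globin genes summed to 1014 to 1971 CPM in ipsilateral, 551 to 965 in contralateral and 868 to 1289 in sham libraries, with 2 called between the hemispheres. The 5 astrocyte markers summed to 5190.4 to 6027, 5098 to 8543 and 4538 to 5909 CPM in that order of groups, with none called. Of the 5 striatal markers, 2 were in the table (Penk and Ppp1r1b), and they summed to 157 to 517 CPM in ipsilateral, 171 to 512 in contralateral and 423 to 685 in sham libraries, with none called. Their part in the values below was not tested.

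Per kilobase of coding sequence, the scale used to compare genes with each other, the median of the core exceeded that of the particle that feeds it. The 13 measured 20S subunits had a median of 177 CPM per kilobase over all 11 libraries, beside 115 for the 18 measured 19S subunits. Within the core the beta subunits were denser in footprints than the alpha subunits, with medians of 211 and 113 CPM per kilobase. The alpha median was thus no higher than that of the 19S subunits. Psmb7, which carries the trypsin-like site, stood highest at 271, followed by Psmb1 at 266. Psma4 was lowest at 90.9 CPM per kilobase, a 2.98-fold range among proteins that the core holds in equal number. Of the short sequence words of Psma4 and Psma5, 41.8% and 65.7% also occur in other annotated transcripts. For the beta subunits Psmb3 and Psmb5 these shares are 68.3% and 76.4%. On the opposite strand Psmb7 overlaps Nek6 by 405 nt and Psma4 overlaps AY074887 by 114 nt. The counts of these genes are uncertain, and so are this range and the contrast of alpha with beta subunits. The 6 measured ATPases of the 19S base lay closer together than the core subunits, between 110.1 for Psmc2 and 165 for Psmc5, a 1.50-fold range. Among the non-ATPases, Psmd14, the deubiquitinase of the lid, was highest at 165 CPM per kilobase. Psmd5, an assembly chaperone that leaves the finished particle, was lowest at 31.2 CPM per kilobase. Per kilobase of the whole transcript the range of the 20S subunits widened to 6.88-fold, so the ratio between subunits depends on which length is used. The activator caps Psme1 and Psme3 were at 74.7 and 64.2 CPM per kilobase.

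**Figure D1:**
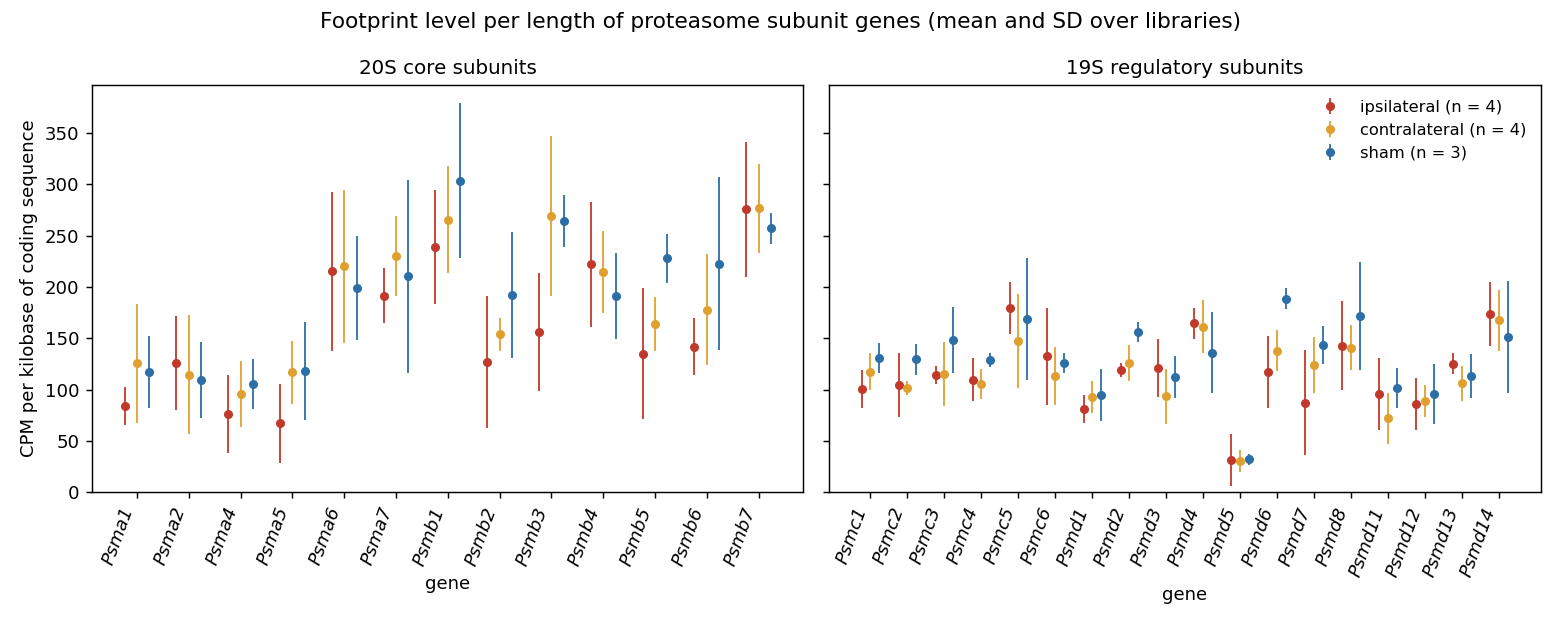
Footprint level of each measured 20S (left) and 19S (right) subunit gene, in CPM per kilobase of coding sequence on the vertical axis; points are means and bars SDs over 4 ipsilateral, 4 contralateral and 3 sham libraries. Psmb1 and Psmb7 stand near the top of the core, Psmd5 lies far below the other 19S subunits in each group, and most bars of the 3 groups overlap.

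Among the enzymes, Uba1 was far above the conjugating enzymes it charges, at 327 CPM per kilobase against a median of 127 for the 18 E2 genes. Ube2v1, a partner of Ube2n that lacks a catalytic cysteine, had the highest value of all members (359 CPM per kilobase), but 82.9% of the 28-nt words of its transcript also occur in the readthrough gene Gm20431, so its counts are uncertain. The lowest E2 gene was at 65.5 CPM per kilobase. The 20 Usp genes had a median of 44.3 CPM per kilobase and spanned the widest range, from 9.96 for Usp34 to 227 for Usp22, a subunit of the SAGA complex that removes ubiquitin from histones. Usp14, which trims chains on the proteasome itself, followed at 215, although 2169 nt of its transcript overlap the gene Thoc1 on the opposite strand and the use of strand in the counting is not given. The ligases Ube3a and Ube3c were low, at 51.6 and 23.0 CPM per kilobase, and the E4 enzymes Ube4b and Ube4a were at 50.8 and 44.6.

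Ipsilateral cortex against sham asks what the reperfused hemisphere translates relative to unoccluded animals. No member passed the test in either direction: of 70 members kept by the low-count filter, edgeR's quasi-likelihood test called 0 at an adjusted p under 0.05, as did DESeq2 and limma-voom. Over all 3835 genes tested, 4 (0.104%) passed. At an unadjusted p under 0.05 there were 3 members, all lower in ipsilateral cortex. Over all genes 7.72% had such a p in either direction, and 132 of 3835 had it and were lower. DESeq2 gave 1 and limma-voom 2 members with such a p. The log2 change was below 0 for 46 of the 70, beside 50.0% of all genes. The members' median log2 change was -0.11 against 0.00 for all genes, with values from -0.79 to 0.35. Under the stricter low-count filter, which keeps 22 members, the median was -0.03. That filter asks for at least 20 counts in at least 7 libraries. A gene can pass it through high ipsilateral counts, so it does not check the direction. All ipsilateral libraries lay below all sham libraries for 4 members, Psmb3, Psmd2, Psmd6 and Usp4, beside 3.29% of all genes, and above them for 0 members, beside 3.86% of all genes.

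**Figure D2:**
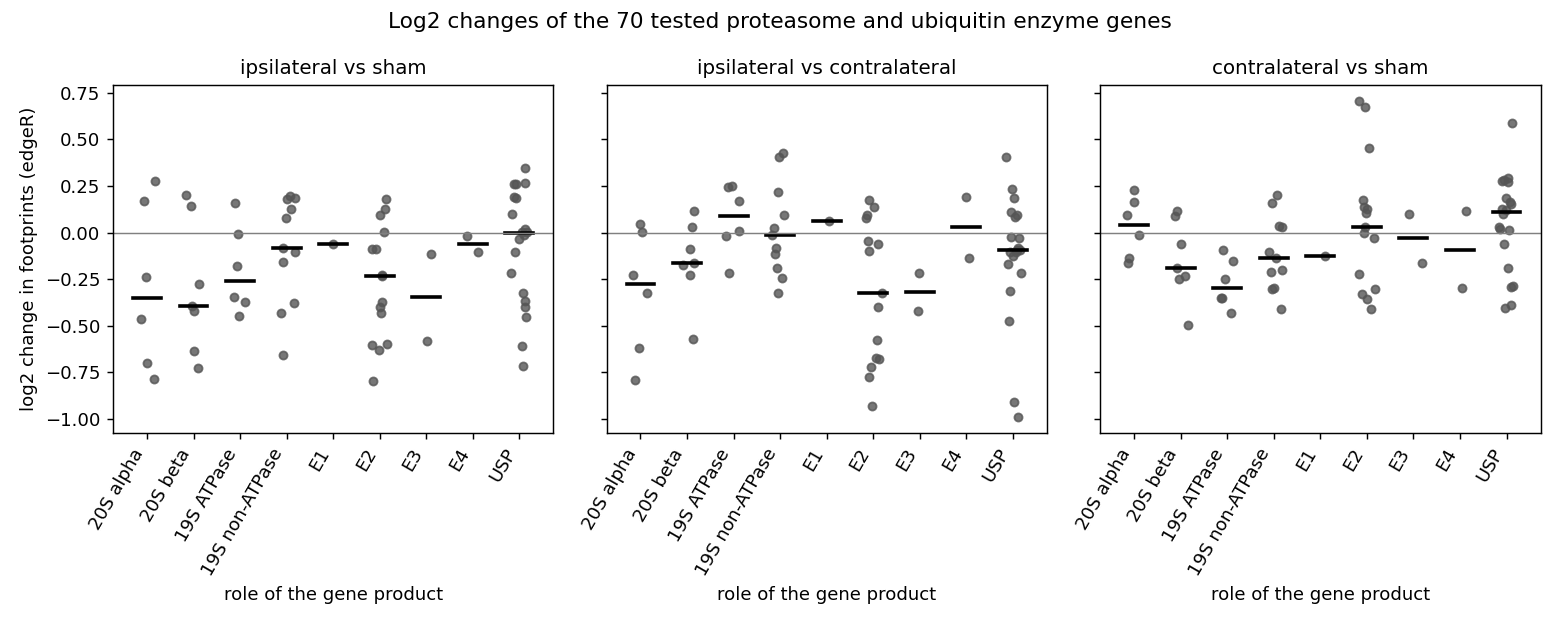
Log2 change in footprints (vertical axis) of the 70 tested members by role (horizontal axis), for ipsilateral against sham, ipsilateral against contralateral and contralateral against sham cortex; each point is a gene and each bar the median of its role. Against sham, the ipsilateral medians of the 20S alpha and beta subunits lie at -0.35 and -0.40 and that of the Usp genes at 0.00.

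The 20S core held the lowest median of the larger roles against sham. Of its 13 genes, 9 had a log2 change below 0 with a median of -0.40, and 0 passed the test. The summed level of the 13 genes was 1718, 1228, 1421 and 1717 CPM in ipsilateral replicates 2, 4, 5 and 6, against 1943, 1736 and 1846 CPM in sham replicates 1, 2 and 5. Each ipsilateral library was below each sham library, by a narrow margin for ipsilateral replicates 2 and 6. The beta subunits carried most of this gap, with 1048, 771, 939 and 1072 CPM in the ipsilateral libraries and 1197, 1294 and 1114 CPM in the sham libraries. The alpha subunits overlapped, at 457 to 669.7 CPM in ipsilateral and 442 to 746 CPM in sham libraries. Without the 2 shallowest libraries (ipsilateral replicate 4 and sham replicate 2) the 20S median was -0.32. Under a stricter low-count filter, which keeps 5 of the 13 genes, it turned to 0.14. No 20S gene reached 20 counts in sham replicate 2, so each of the 5 needed an ipsilateral library with 20 or more. This filtered median therefore cannot show the direction of the 13 genes.

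Psmb5, which encodes the chymotrypsin-like site targeted by bortezomib, had 65.5, 114, 72.3 and 176 CPM in ipsilateral replicates 2, 4, 5 and 6, against 184, 198 and 159.8 CPM in sham replicates 1, 2 and 5. Ipsilateral replicate 6 lay within the sham range and the other 3 ipsilateral libraries below it. The log2 change was -0.73 ± 0.31 (SE; edgeR adjusted p = 0.504), and -1.23 without ipsilateral replicate 6. Psmb3, a structural beta subunit, had 131, 57.1, 120.4 and 75.4 CPM in the ipsilateral libraries, against 145, 168 and 175 CPM in the sham libraries. These groups did not overlap, with a log2 change of -0.63 ± 0.31 (edgeR adjusted p = 0.643). Both genes have near-copies: 76.4% of the 28-nt words of Psmb5 and 68.3% of those of Psmb3 occur elsewhere among annotated transcripts, in Gm3375 and AC114990.1, so reads may have been split or shared. Psmb6, the caspase-like site, and Psmb7 had log2 changes of -0.42 ± 0.32 and 0.14 ± 0.25. Psmb1 had -0.28 ± 0.26, Psma1 -0.70 ± 0.40, Psma7 -0.24 ± 0.28, and Psma6, the alpha subunit with the most footprints, 0.17 ± 0.29.

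In the 19S particle, 11 of 17 tested genes had a log2 change below 0 against sham, with a median of -0.11. Psmd6, a subunit of the lid, had the smallest p of all members. Its level was 160.2, 114, 181 and 92.1 CPM in ipsilateral replicates 2, 4, 5 and 6, against 226, 228 and 206 CPM in sham replicates 1, 2 and 5. Every ipsilateral library was below every sham library, and no 28-nt word of Psmd6 occurs elsewhere. The log2 change was -0.66 ± 0.26 with a 95% interval of -1.18 to -0.13 (edgeR adjusted p = 0.468). Psmd2, the large scaffold subunit of the base that docks ubiquitin shuttles and Usp14, had 349, 314, 325 and 309.9 CPM in ipsilateral libraries, against 451, 426 and 397 CPM in sham libraries. These groups did not overlap either, at -0.38 ± 0.20 (edgeR adjusted p = 0.694), with 49.2% of its words shared with Gm5422 or other transcripts. The ubiquitin receptor Psmd4 and the deubiquitinase Psmd14 had 0.18 ± 0.26 and 0.19 ± 0.29. The value of Psmd14 was 0.53 without sham replicate 1 and -0.13 without sham replicate 5, so its direction rested on a library. Summed 19S levels overlapped, at 2514 to 3130.2 CPM in ipsilateral and 3114 to 3274 CPM in sham libraries.

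Uba1 had nearly level footprints in the groups, at 1070.1, 971, 1168 and 947 CPM in ipsilateral libraries, against 1071, 1096 and 1098 CPM in sham libraries. Its log2 change of -0.06 ± 0.15 has a 95% interval of -0.37 to 0.25, the narrowest of the members with Usp9x (-0.37 to 0.38). The E2 enzymes lay lower on balance: 11 of 15 tested genes had a log2 change below 0 against sham, with a median of -0.23. Their summed level over 18 genes was 1652, 1514, 1397 and 1575 CPM in the ipsilateral libraries, against 1755, 2056 and 1861 CPM in the sham libraries. The groups did not overlap, by a narrow margin between ipsilateral replicate 2 and sham replicate 1. None of the E2 genes had an unadjusted p under 0.05 against sham. The 20 Usp genes showed no such gap, with 10 below 0, a median of 0.00 and summed levels of 3217 to 3914 CPM in ipsilateral and 3198 to 3744 CPM in sham libraries. Usp9x, a large deubiquitinase of neurons with the most footprints of its family, had 543 to 891 CPM in ipsilateral and 579 to 753 CPM in sham libraries (log2 change 0.00 ± 0.19). The Usp genes with the smallest p on the higher side were Usp20, Usp19 and Usp14, at 0.35 ± 0.42, 0.26 ± 0.26 and 0.19 ± 0.24. Ube3a, the ligase lost in Angelman syndrome, had -0.58 ± 0.33 (edgeR adjusted p = 0.708), and -1.19 without ipsilateral replicate 2.

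**Figure D3:**
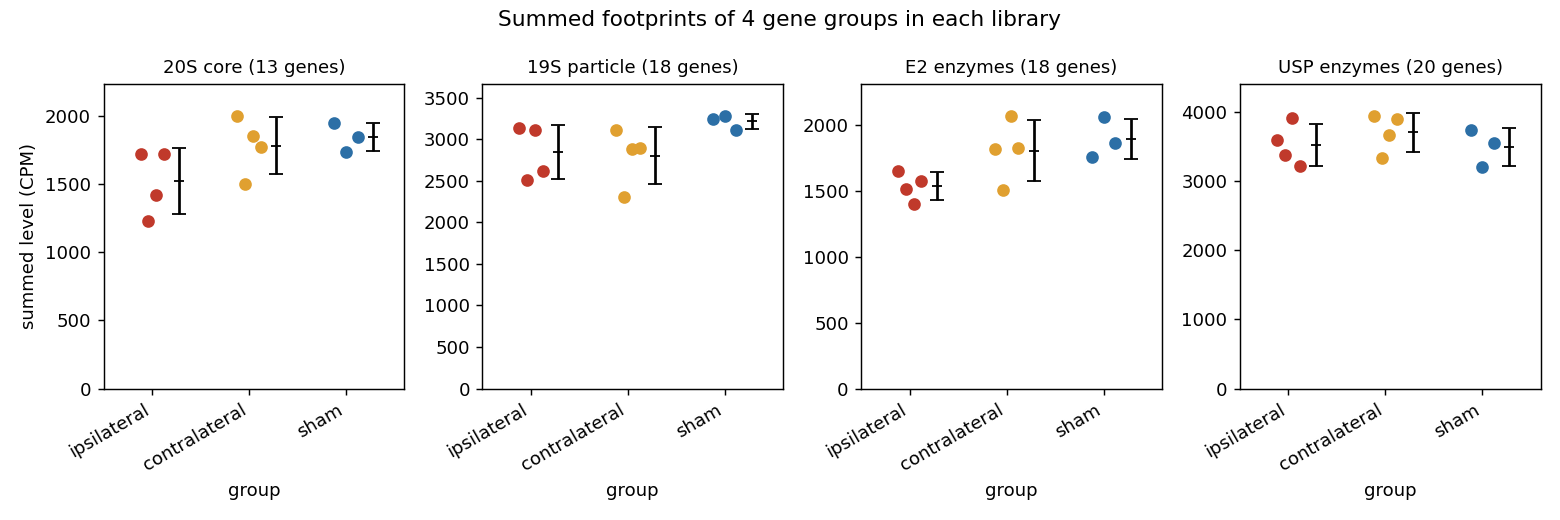
Summed CPM (vertical axis, from 0) of the genes of 4 roles in each library, with groups on the horizontal axis; points are libraries, and the dash and bar beside them give the mean and SD of 4 ipsilateral, 4 contralateral and 3 sham libraries. The ipsilateral points of the 20S core and of the E2 enzymes lie below all sham points, some of them narrowly. Those of the 19S particle and the Usp genes overlap with sham.

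Ipsilateral against contralateral cortex sets the reperfused hemisphere beside the opposite one. Again 0 of 70 members passed the test by edgeR, DESeq2 or limma-voom, while 14 of 3835 genes (0.365%) did. At an unadjusted p under 0.05, edgeR gave 6 members, all lower in ipsilateral cortex, limma-voom 4 and DESeq2 0. Over all genes 7.61% had such a p by edgeR in either direction, and 107 of 3835 had it and were lower. The change was below 0 for 45 of 70 members, beside 48.7% of all genes, with a median of -0.09 against 0.01 for all genes. Under the stricter filter, which keeps 22 members and can keep a gene for its ipsilateral counts, the median was 0.01. The groups did not overlap for 1 member, Ube2e1, which was lower in ipsilateral cortex, beside 2.06% of all genes, and 0 members lay wholly higher, beside 2.35%. Of the 6 members with an unadjusted p under 0.05, 3 are E2 enzymes, 2 are Usp genes and 1 is a 20S alpha subunit.

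The E2 enzymes had the lowest median of the larger roles between the hemispheres, at -0.33 with 11 of 15 below 0. Under the stricter filter, which keeps 2 of the 15 and can keep a gene for its ipsilateral counts, this median was 0.05. Ube2d2a, a broadly used conjugating enzyme, had 94.6, 28.6, 36.1 and 25.1 CPM in ipsilateral replicates 2, 4, 5 and 6, against 85.3, 59.6, 98.5 and 126 CPM in contralateral replicates 1, 4, 5 and 6. Ipsilateral replicate 2 was as high as the contralateral libraries and the other 3 were below all of them. The log2 change was -0.93 ± 0.36 (edgeR adjusted p = 0.456), and -1.79 without ipsilateral replicate 2. In sham cortex its level was 91.8, 91.4 and 92.8 CPM. Ube2n, which builds non-degradative chains with Ube2v1 or Ube2v2, had 138, 0, 36.1 and 67.0 CPM in the ipsilateral libraries, against 144, 74.5, 164 and 133 CPM in the contralateral libraries. Its log2 change was -0.78 ± 0.35 (edgeR adjusted p = 0.577), and -1.56 without ipsilateral replicate 2. Ube2e1 had 58.2, 57.1, 12.0 and 58.6 CPM in ipsilateral libraries, against 85.3, 89.4, 85.3 and 60.5 CPM in contralateral libraries, at -0.67 ± 0.40. Its 95% interval of -1.48 to 0.14 includes 0, so Ube2e1 is not among the E2 genes with an unadjusted p under 0.05. Summed E2 levels of the hemispheres overlapped, at 1397 to 1652 CPM in ipsilateral and 1504 to 2065 CPM in contralateral libraries, where contralateral replicate 4 was the lowest of its group.

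Usp46, known from worm and rat neurons to act on glutamate receptors, had the smallest p of the members between the hemispheres. Its level was 21.8, 57.1, 84.3 and 33.5 CPM in ipsilateral libraries, against 85.3, 59.6, 82.1 and 100.3 CPM in contralateral libraries. Ipsilateral replicate 5 lay inside the contralateral range and the other 3 ipsilateral libraries below it. The log2 change was -0.99 ± 0.38 (edgeR adjusted p = 0.454), and -1.46 without ipsilateral replicate 5. In sham libraries Usp46 was at 65.0, 76.1 and 77.3 CPM. Usp10, a partner of the stress granule protein G3BP1, had 36.4, 0, 84.3 and 25.1 CPM in the ipsilateral libraries, against 52.5, 119, 55.8 and 83.0 CPM in the contralateral libraries, a log2 change of -0.91 ± 0.45 (edgeR adjusted p = 0.647). These genes rest on few footprints: Usp46 had 16 counts over the 4 ipsilateral libraries and 104 over the contralateral libraries. The other Usp genes included Usp14 at -0.09 ± 0.22, Usp5, which takes apart free chains, at 0.09 ± 0.21, Usp7 at -0.09 ± 0.26 and Usp9x at -0.13 ± 0.17. Without ipsilateral replicate 2, Usp7 was at -0.46.

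**Figure D4:**
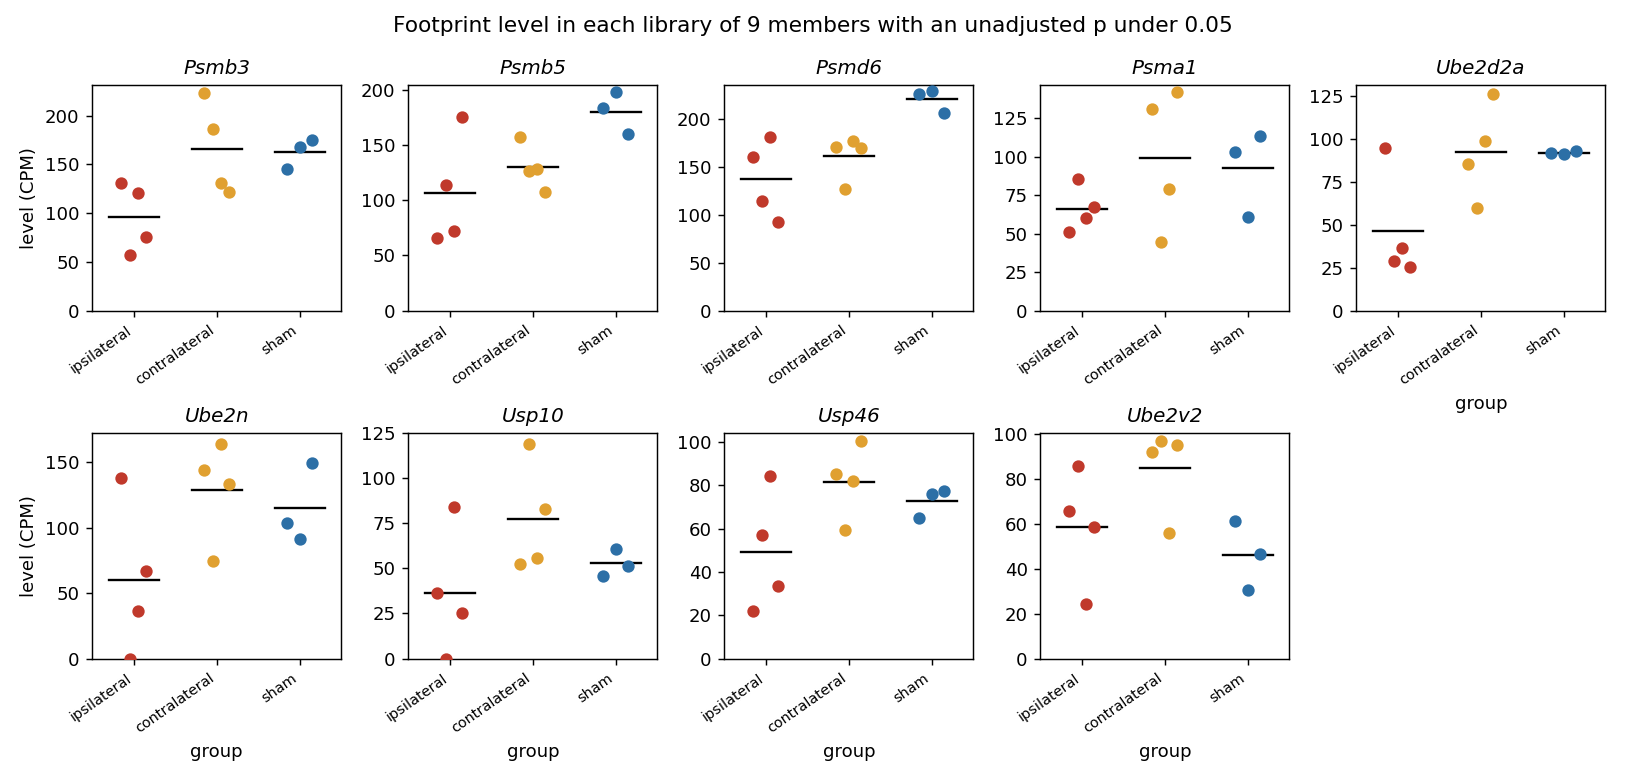
Footprint level (CPM, vertical axis from 0) in each library of 9 members, with groups on the horizontal axis. Each had an unadjusted p under 0.05 in at least 1 of the 3 comparisons, and not every such member is drawn. Points are libraries and bars group means. Psmb3 and Psmd6 separate ipsilateral from sham libraries, whereas in Ube2d2a, Ube2n and Usp46 an ipsilateral library lies among the contralateral ones.

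For the proteasome itself, the median log2 change between the hemispheres was -0.17 for the 13 core genes, with 9 below 0, and 0.01 for the 17 tested 19S genes, with 8 below 0. Psma1 had 51.0, 85.7, 60.2 and 67.0 CPM in ipsilateral libraries, against 131, 44.7, 78.8 and 142 CPM in contralateral libraries. Contralateral replicate 4 was the lowest of all 8, and the log2 change was -0.79 ± 0.35 (edgeR adjusted p = 0.575). Psmb5 and Psmd6, the genes with the smallest p against sham, had -0.23 ± 0.29 and -0.24 ± 0.24 against contralateral cortex, and Psmb5 had -0.73 without ipsilateral replicate 6. Psmb3 had -0.57 ± 0.29 (edgeR adjusted p = 0.656). On the higher side were the lid subunits Psmd11 and Psmd3, at 0.43 ± 0.29 and 0.41 ± 0.24. Summed core levels were 1228 to 1718 CPM in ipsilateral and 1497 to 1995 CPM in contralateral libraries, and these overlapped.

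Contralateral against sham cortex shares the contralateral libraries with the comparison above and the sham libraries with the one before it, so the 3 sets of values are not independent. Here 0 members and 0 of 3835 genes (0%) passed edgeR's test. At an unadjusted p under 0.05 there was 1 member, higher in contralateral cortex. Over all genes 5.71% had such a p in either direction, and 99 of 3835 had it and were higher. For such a p limma-voom gave 4 and DESeq2 0 members. DESeq2 called 2 of all genes and 0 members. The change was below 0 for 37 of 70 members, beside 50.3% of all genes, with medians of -0.02 and 0.00. Contralateral libraries lay wholly below sham for 6 members (Psmb5, Psmc2, Psmd2, Psmd6, Ube2k and Usp47), beside 4.17% of all genes, and wholly above for 1, Ube2e1, beside 3.42%.

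The ATPases of the 19S base were the role with the lowest median here. All 6 measured genes had a log2 change below 0, between -0.43 and -0.09 with a median of -0.30, and 0 had an unadjusted p under 0.05. Their summed level was 1030.1, 678, 936 and 939 CPM in contralateral replicates 1, 4, 5 and 6, against 1178, 929 and 1098 CPM in sham libraries, and these overlapped. Psmc3 had the lowest value, at -0.43 ± 0.22 (edgeR adjusted p = 0.907). Psmd6 had 171, 127, 177 and 169.5 CPM in contralateral libraries, all below the sham values of 206 to 228 CPM, at -0.41 ± 0.22 (edgeR adjusted p = 0.907). Psmb5 had 157, 127, 128 and 107 CPM in contralateral libraries, all below the sham values of 159.8 to 198 CPM, at -0.50 ± 0.25 (edgeR adjusted p = 0.872). For both genes the contralateral mean lay between the ipsilateral and the sham mean: 137 ± 40.7, 161 ± 23.2 and 220.1 ± 12.1 CPM for Psmd6 and 107 ± 50.8, 129.8 ± 20.7 and 180.5 ± 19.3 CPM for Psmb5 (ipsilateral, contralateral and sham; SD, n = 4, 4 and 3).

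The member with the smallest p between contralateral and sham cortex was Ube2v2, the other partner of Ube2n. It had 91.9, 96.8, 55.8 and 95.1 CPM in contralateral libraries, against 61.2, 30.5 and 46.4 CPM in sham libraries. Contralateral replicate 5 lay within the sham range, and the log2 change was 0.71 ± 0.35 (edgeR adjusted p = 0.869). Ube2e1 was the member wholly higher, at 85.3, 89.4, 85.3 and 60.5 CPM against 57.4, 45.7 and 36.1 CPM in sham libraries (0.67 ± 0.38). It shares 23.1% of its words with other transcripts and overlaps Nkiras1 on the opposite strand by 718 nt. The Usp genes had a median of 0.11, with 6 of 20 below 0, and the E2 genes 0.03, with 7 of 15 below 0.

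Summed over all 76 genes, the members took 11091 ± 759 CPM in ipsilateral, 11709 ± 1057 CPM in contralateral and 12185 ± 208 CPM in sham cortex (SD, n = 4, 4 and 3). These are 1.11%, 1.17% and 1.22% of the footprints summed over 1 transcript for each of the 4338 genes, scaled by TMM factors. Every ipsilateral library, from 10340.0 to 11895 CPM, was below every sham library, from 11970.0 to 12386 CPM. The margin was narrow: ipsilateral replicate 2 (11895 CPM) and sham replicate 2 (11970 CPM) nearly met, and a single count in sham replicate 2 equals 15.2 CPM. The contralateral libraries ran from 10182 to 12617 CPM and overlapped with both. The 6 members left out by the low-count filter had no test. Among them the proteasome activator Psme1 had 65.5, 114, 48.2 and 75.4 CPM in ipsilateral libraries, 59.0, 52.1, 36.1 and 60.5 CPM in contralateral libraries and 45.9, 15.2 and 41.2 CPM in sham libraries. Each of its ipsilateral values exceeded each sham value. Ube2b, an E2 of the DNA damage response, had 58.2, 57.1, 0 and 25.1 CPM in ipsilateral libraries. It had 52.5, 37.2, 98.5 and 50.2 CPM in contralateral libraries and 68.8, 107 and 72.2 CPM in sham libraries. Each ipsilateral value was below each sham value, on 8, 2, 0 and 3 ipsilateral and 18, 7 and 14 sham counts. Over all genes tested, 3.86% lay wholly higher and 3.29% wholly lower in ipsilateral than in sham cortex. The remaining 4, Psmd5, Psme3, Ube2h and Ube2r2, overlapped between ipsilateral and sham cortex.

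Other genes of the pathway were followed through lists of E1 enzymes, modifiers, ligases, cullin complexes, deubiquitinases, shuttles and assembly factors. Of 178 listed genes, 111 were in the table and 100 were tested. In ipsilateral against sham cortex 0 of them passed edgeR's test, with 55 below 0 and a median of -0.03. In ipsilateral against contralateral cortex 46 were below 0, with a median of 0.02. In contralateral against sham cortex 0 passed, with 47 below 0 and a median of 0.02. By list, the 33 tested cullin-RING subunits had a median of -0.13 against sham with 24 below 0, and the 13 HECT and RBR ligases 0.09 with 2 below 0. The 19 other RING ligases had 0.05 against sham with 7 below 0, and the 16 shuttles and extraction factors -0.15 with 10 below 0. The 7 other deubiquitinases had 0.15 with 3 below 0, the 5 assembly and transcription factors -0.06 with 3 below 0, the 4 modifiers -0.10 with 3 below 0 and the 3 other E1 enzymes -0.13 with all 3 below 0.

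Among the listed genes with the smallest p were 5 that were not called. They were Zranb1 (1.22 ± 0.52) and Fbxl16 (-0.61 ± 0.26) in ipsilateral against sham cortex, and Prpf19 (0.67 ± 0.24) and Cul1 (-0.74 ± 0.30) in ipsilateral against contralateral cortex. In contralateral against sham cortex they were Prpf19 (-0.77 ± 0.24), Fbxl16 (-0.66 ± 0.23) and Adrm1 (-0.83 ± 0.27), the ubiquitin receptor that docks on the 19S base.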

How the data were processed

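The deposited values are whole-number counts of footprints for each Ensembl transcript in 11 libraries. Per the labels' protocols, cortex was digested with micrococcal nuclease, ribosomes were captured with an antibody to P0, and small RNA libraries were read as 69 bp single ends. The submitters' processing notes name Bowtie2, edgeR and mm10, with no roles or versions; the counting step and any use of strand is not given in the sources used here. All 9784 transcripts listed have at least 101 summed counts each; 9736 matched GENCODE vM21 and the other 48 (0.306% of counts) were left out. Each gene was represented by its transcript with the most counts. edgeR 4.0.16 in R 4.3.3 (TMM, filterByExpr with a minimum count of 10, quasi-likelihood F test, all 11 libraries, Benjamini-Hochberg threshold 0.05) gave every p-value not credited to another tool, adjusted over all 3835 genes tested. DESeq2 1.42.0 and limma-voom (limma 3.58.1) were alternatives, and the scripts were tested on simulated data. Sequence uniqueness was counted in 28-nt words over annotated transcripts, and 23 of the 76 members had over 5% of their words elsewhere.

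A replicate number stands for 1 day of surgery, per the series design text, so libraries of different groups with 1 number share a day. Deviations from group means correlated at r = -0.139 to 0.224 (median 0.131) over 7 same-number pairs across genes, beside -0.254 to 0.259 (median -0.0301) over 33 other pairs. Totals of 35067 to 571352 counts limit the precision. The members, lists and tests were chosen with earlier results of these data known. Named members were those with the smallest p in each direction and comparison, the highest in each role and a fixed list; members counted as not overlapping and a few others were named after their values were seen. Results for 2 genes are not reported here.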

Additional observations from a re-analysis of the deposited data

Results flagged for a closer look

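In the groups of 4 libraries, 112 sets of values (56 members or role sums in each hemisphere) were screened for a library standing apart by Dixon's criterion (gap to the nearest library over the group's range), and 10 were picked out; chance alone gives about 1 in 20. In ipsilateral replicate 2, Ube2d2a was at 94.6 CPM, above 25.1 to 36.1 CPM in the other 3 ipsilateral libraries, Usp7 at 197 CPM, above 108 to 114 CPM, and Psme3 at 87.4 CPM, above 28.6 to 36.1 CPM. In ipsilateral replicate 5, Ube2e1 was at 12.0 CPM, which is a single count, below 57.1 to 58.6 CPM. Contralateral replicate 4 was the low library for Psmc5 (96.8 CPM, the others 197 to 214 CPM), Psmd6 (127 CPM, the others 169.5 to 177 CPM) and Ube2d3 (44.7 CPM, the others 98.4 to 107 CPM). It was also low for the summed 20S alpha subunits (402 CPM, the others 742 to 797 CPM). Ube2v2 in contralateral replicate 5 was at 55.8 CPM, below 91.9 to 96.8 CPM, and Ube2e1 in contralateral replicate 6 was at 60.5 CPM, below 85.3 to 89.4 CPM.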

How the results depend on the processing

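The count of members called was 0 in all 3 comparisons under every alternative run (replicate block, RLE and upper-quartile scaling, DESeq2, limma-voom, no or a stricter filter, 2 groups in the fit, mean of transcripts, without the 2 shallowest libraries and without each library). With surgery day as a replicate block, which the numbers allow, the smallest adjusted p of a member was 0.750 (Ube2d2a) in ipsilateral against sham cortex, 0.344 (Ube2d2a) in ipsilateral against contralateral cortex and 0.954 (Psmb2) in contralateral against sham cortex; the block changed no call of a member and moved the members' median to -0.11, -0.11 and 0.02. Leaving out a library moved that median between -0.21 and -0.08, between -0.16 and -0.06, and between -0.09 and 0.00 in these comparisons. Over all genes, DESeq2 called 10 genes against 4 in ipsilateral against sham and 2 against 0 in contralateral against sham; in ipsilateral against contralateral, upper-quartile scaling called 8 and leaving out the 2 shallowest libraries 7, against 14. Leaving out 1 library gave 0 to 22, 4 to 26 and 0 to 3 calls in the 3 comparisons. The summed member level of sham cortex was 12492 CPM with the mean of transcripts, against 12185. Of 2138 alternative values of the 43 named and tested members, 31 moved by more than the standard error and none became a call. The 20S median against sham ranged from -0.46 (without sham replicate 1) to 0.14 (stricter filter), and the E2 median from -0.40 to -0.13. Between the hemispheres the E2 median ranged from -0.41 (mean of transcripts) to 0.05 (stricter filter). The stricter filter keeps genes partly by their ipsilateral counts, so its medians do not check the direction. The causes of these shifts were not tested, apart from the genes and libraries each alternative removes. Depth limits all of this: a median count of 4 per member in ipsilateral replicate 4 cannot show small differences.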
